A study of Homo sapiens with 12 samples.

Results

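The genes that write, maintain, remove and read DNA methylation were followed through knockdown of CARM1 and of subunits and partners of the NuRD complex. The 9 genes were taken from a list of names, DNMT1, DNMT3A, DNMT3B, UHRF1, TET1, TET2, TET3, MBD1 and MBD4, and the rule used no measured value, although the list was drawn up with earlier results of these data known. They are 9 of the 58662 genes matched to the annotation and 9 of the 12830 coding genes tested, since all 9 passed the filter on low values. Cells were HEK293T according to the labels and HEK293 according to the methods, a human embryonic kidney line. They were transfected with a control siRNA (siCTL, labelled wild type) or with an siRNA against CARM1 (siCARM1), CHD4 (siCHD4), HDAC2 (siHDAC2), GATAD2A (siGATAD2A) or KDM1A (siKDM1A), each labelled as a knock down of its gene, and every group has 2 RNA-seq libraries. All groups share the wild-type line and the Lipofectamine transfection. No rescue with a resistant cDNA and no second siRNA is labelled, so in these libraries an off-target effect and the loss of a target cannot be told apart. The methods list 2 siRNAs against CARM1 and do not say which was used for RNA-seq. The paper's rescues with CARM1 or GATAD2A read expression by RT-qPCR of selected cell cycle genes, outside these libraries. Nothing in the labels says that the 2 libraries of a group came from separate cultures, and p-values then measure only the spread between these libraries. Each knockdown was compared with the same 2 siCTL libraries.

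DNA methylation in mammals is found mostly on cytosines of CpG dinucleotides. DNMT3A and DNMT3B place it on unmethylated DNA, and DNMT1, brought to newly replicated DNA by UHRF1, copies it to the daughter strand. TET enzymes oxidise 5-methylcytosine to 5-hydroxymethylcytosine and further, after which replication or base excision repair can restore cytosine. Proteins with a methyl-CpG-binding domain read the mark, among them MBD2, which joins the NuRD complex, and its close relative MBD3, a NuRD subunit that does not bind methylated DNA in mammals as MBD2 does. DNA methylation itself was not measured here, and mRNA levels of these genes say nothing of the methylation level.

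The libraries held 19308315 to 28648657 read pairs counted on genes, and the 9 genes had between 607 and 12669 counts in each library. Pairs on no gene made up 17.16% and 17.98% in siCTL and 18.48% to 21.16% in the knockdown libraries. Counts on identifiers without a match made up 2.611% and 2.576% in siCTL and 1.755% to 2.345% in the knockdown libraries. A shift of the siCTL libraries and a response common to all knockdowns cannot be told apart. The targeted mRNA was lower in each knockdown, with log2 fold changes against siCTL of -2.38 for CARM1, -0.54 for CHD4, -2.35 for HDAC2, -1.75 for GATAD2A and -2.59 for KDM1A. CHD4 shares 46.91% of its exonic bases with another gene on the same strand, and pairs that fall on both are not counted, so its count covers only a part of the mRNA. Of the targets, 2 were also called in another knockdown, GATAD2A, 2.12-fold higher in siCHD4, and CHD4, 1.25-fold lower in siCARM1 (log2 fold change -0.32, adjusted p = 3.5e-04). Of the markers of HEK293 cells, NEFL (median FPKM 37.9), LIN28B (13.0) and VIM (107) were present, whereas NEFM (0.097), INA (0.223) and PAX2 (0.124) were near 0. KRT19 (40.6), GATA3 (3.41) and COL1A1 (8.75), which were listed as markers of breast cancer lines and fibroblasts, were also present, and ESR1, TFF1, PTPRC, CD3E, CDH5, COL1A2 and ALB had medians at or near 0.

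Positions are those of the GENCODE annotation mapped to GRCh37. DNMT1 lies at chr19:10244018-10341962 (minus strand), UHRF1 at chr19:4903092-4962165 (plus), DNMT3A at chr2:25450724-25565459 (minus) and DNMT3B at chr20:31350191-31397165 (plus). TET1 lies at chr10:70320094-70454244 (plus), TET2 at chr4:106067032-106200973 (plus) and TET3 at chr2:74212037-74335303 (plus). MBD1 lies at chr18:47793252-47808144 (minus) and MBD4 at chr3:129149790-129159022 (minus). All are protein-coding, and a count is the number of read pairs on their exons. On the same strand, 0.54% of the exonic bases of DNMT1 and 3.01% of those of TET3 overlap another gene, and 8.32% of those of MBD4 overlap IFT122 on the opposite strand.

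Sequences before the start sites of UHRF1, DNMT3A and TET2 are shown because these are the members that were lower in siCHD4, and because their CpG content differs. They come from RefSeq on GRCh38.p14, in which all 9 members matched with 20 start-site windows. The 250 bases before the most upstream listed start of TET2 (chr4:105145625-105145874, plus strand) and of DNMT3A (chr2:25342591-25342840, minus strand) are printed 5′ to 3′ with each CpG in capitals. For UHRF1, 30 bases around the E2F-like match of its first 2 windows (chr19:4909471-4909500 and chr19:4909973-4910002, plus strand) are printed with the match in capitals.
UHRF1, first window: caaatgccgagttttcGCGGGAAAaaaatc
UHRF1, second window: cccgagcccgaTTTCGCGCgccctgagttc
TET2: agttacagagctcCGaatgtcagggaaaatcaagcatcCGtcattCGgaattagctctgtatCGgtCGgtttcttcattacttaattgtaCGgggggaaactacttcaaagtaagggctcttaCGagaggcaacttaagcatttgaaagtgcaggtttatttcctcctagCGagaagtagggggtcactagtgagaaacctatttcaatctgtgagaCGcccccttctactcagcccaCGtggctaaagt
DNMT3A: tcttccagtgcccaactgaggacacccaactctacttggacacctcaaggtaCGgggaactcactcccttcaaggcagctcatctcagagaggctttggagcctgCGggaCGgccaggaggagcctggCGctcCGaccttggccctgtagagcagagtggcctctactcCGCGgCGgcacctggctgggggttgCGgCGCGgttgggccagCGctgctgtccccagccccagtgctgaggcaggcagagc
The TET2 stretch holds 10 CpGs, with an observed to expected ratio of 0.77, and the DNMT3A stretch holds 12, with a ratio of 0.45. The median of 35116 such windows of all genes is 11 CpGs and a ratio of 0.56. Other starts of the same genes are richer, up to 34 CpGs for TET2 and 33 for DNMT3A. The 3 UHRF1 windows hold 28, 32 and 41 CpGs. At least 0.6 of the expected CpGs was found in 14 of the 20 member windows and in 47.9% of all windows. Windows of the same gene can overlap, and DNMT3A supplies 6 of the 20, so the windows are not separate units. The motif searched was TTT, then 2 bases that are C or G, then CGC, on both strands, and it occurs in 2.79% of all windows. Among the 20 member windows it was found in 2, both of UHRF1, at 14 and 160 bases before the start. The letters GGGCGG, searched on both strands, were in 11 of the 20 member windows, 4 of them of DNMT3A, and in 42.6% of all. The motifs can share bases, since GCGGGAAA, a form of the first, can begin within GGGCGG. A match of letters is a description and not a bound site.

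In siCTL the order of the levels, in FPKM (counts scaled to exon length and to the total count on genes, mean ± SD of 2 libraries), began with the maintenance pair. UHRF1 stood at 79.1 ± 0.934, above 97.5% of the tested genes, and DNMT1 at 24.6 ± 0.0707. DNMT3B followed at 12.1 ± 0.0567, then MBD4 at 11.4 ± 0.407, MBD1 at 10.2 ± 0.492, TET3 at 7.47 ± 0.0909, TET1 at 7.38 ± 0.273, DNMT3A at 5.83 ± 0.0248 and TET2 at 2.7 ± 0.221. TET3 and TET1 overlapped between libraries, whereas all other neighbours in this order were separated in both libraries. In FPKM, UHRF1 led in all 6 groups, followed by DNMT1, and TET2 was lowest, preceded by DNMT3A. This order and the percentage of genes below UHRF1 depend on the merged exon lengths, 5144 bases for UHRF1 and 15379 for DNMT1. Scaled to library size and not to length (CPM), the siCTL means were near each other, 405 for UHRF1 and 377 for DNMT1. On that scale DNMT3A (80.0) stood above MBD4 (38.2) in siCTL. The SDs measure the spread between libraries and not this dependence on length.

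Across the 6 groups, 8 of the 9 members differed by edgeR's quasi-likelihood test (adjusted p from 9.0e-13 for DNMT3A to 1.3e-05 for MBD1), and MBD4 did not pass (adjusted p = 0.34). This is read against 91% of all tested genes. A gene was called in a comparison at a fold of 1.2 or more together with an adjusted p no larger than 0.05. Of the 45 values of 9 genes in 5 knockdowns, 5 were called lower, 7 higher and 33 neither. Calls in opposite directions in different knockdowns, found for 9.37% of the tested genes, occurred in no member. The plot of CPM (counts scaled to library size with TMM factors) shows every library.

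**Figure D1:**
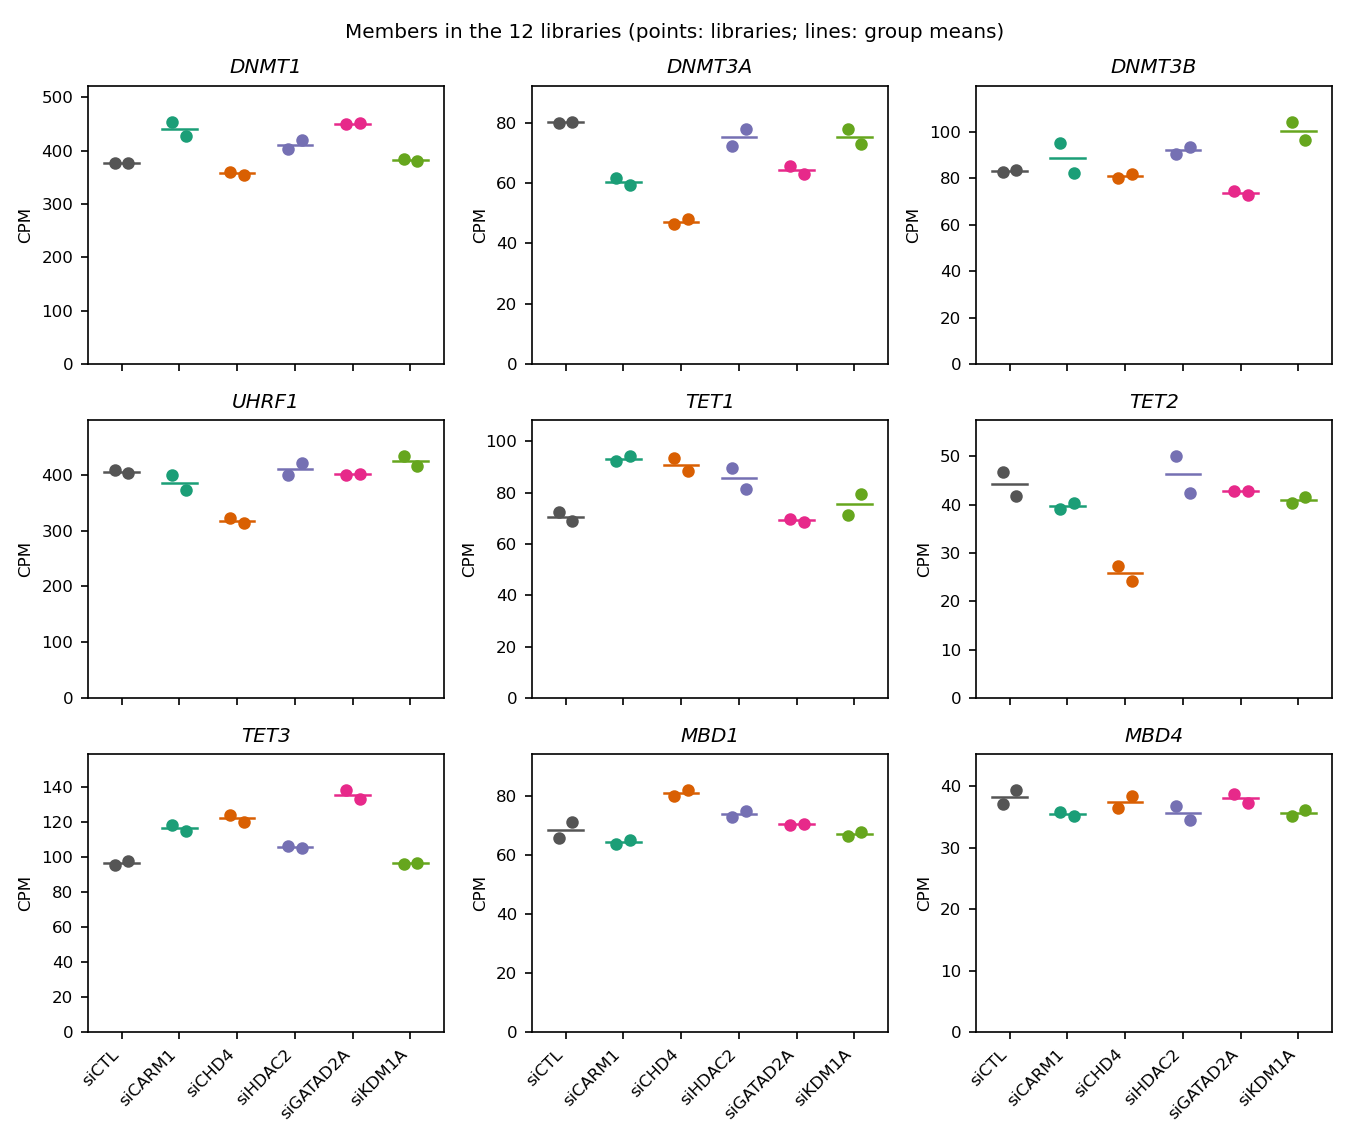
Level of each of the 9 genes (CPM, y axes from 0, different scale in each panel) in the 2 libraries of each siRNA group (points), with the group mean as a line. DNMT3A and TET2 are lowest in siCHD4 (46.4 and 48.0 CPM, 27.3 and 24.3 CPM), and TET3 is highest in siGATAD2A (138 and 133 CPM).

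Knockdown of CHD4 gave the most calls, 3 members lower (25.1% of all tested genes were) and 2 higher (23.6%). In siCARM1, 1 member was lower (background 14.7%) and 2 were higher (14.5%). In siGATAD2A, 1 was lower (18.4%) and 1 higher (15.4%). In siHDAC2, 0 were lower (9.22%) and 1 was higher (10.4%), and in siKDM1A likewise 0 were lower (11.8%) and 1 was higher (14%). Calls in these comparisons were common in all tested genes, and nothing particular to the members is read from their counts. The median size of the members' log2 fold changes was 0.34 in siCHD4, against 0.28 over all tested genes. It was 0.15 in siCARM1 (0.18 over all tested genes), 0.11 in siHDAC2 (0.15), 0.04 in siGATAD2A (0.20) and 0.09 in siKDM1A (0.16).

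DNMT3A, a de novo methyltransferase, was the member called lower most often. It had 80.0 and 80.1 CPM in siCTL, 61.5 and 59.3 in siCARM1, 46.4 and 48.0 in siCHD4, 72.3 and 78.0 in siHDAC2, 65.7 and 62.8 in siGATAD2A, and 77.8 and 72.9 in siKDM1A. Every library of a knockdown lay below both siCTL libraries, and the 2 siCHD4 libraries were the lowest of the 12. The log2 fold change was -0.76 ± 0.0575 (SE, adjusted p = 4.8e-13) in siCHD4, -0.41 ± 0.056 (4.9e-07) in siCARM1 and -0.32 ± 0.0556 (1.7e-05) in siGATAD2A. It was -0.09 in both siHDAC2 and siKDM1A, where the 95% intervals ran from -0.20 to 0.02 and the adjusted p-values were 0.222 and 0.206.

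DNMT3B, the other de novo enzyme, followed another order. It had 82.4 and 83.5 CPM in siCTL, 94.9 and 82.3 in siCARM1, 80.2 and 81.6 in siCHD4, 90.4 and 93.5 in siHDAC2, 74.3 and 72.9 in siGATAD2A, and 104 and 96.4 in siKDM1A. The siKDM1A libraries were the highest and the siGATAD2A libraries the lowest, and the siCARM1 libraries lay on either side of both siCTL libraries. DNMT3B was called higher in siKDM1A, at a log2 fold change of 0.27 ± 0.0573 (adjusted p = 2.5e-04). This fold of 1.21 is next to the minimum, and the call was lost without siKDM1A replicate 1, at 0.22. In siGATAD2A the value was -0.17 (adjusted p = 0.0143) and in siHDAC2 0.15 (0.0421), both under the minimum fold. The 95% interval in siCHD4 ran from -0.16 to 0.08, where DNMT3A was 1.70-fold lower.

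DNMT1, the maintenance methyltransferase, was called in no knockdown. It had 376 and 377 CPM in siCTL, 453 and 428 in siCARM1, 360 and 355 in siCHD4, 402 and 419 in siHDAC2, 449 and 451 in siGATAD2A, and 384 and 380 in siKDM1A. The siGATAD2A and siCARM1 libraries were the highest and the siCHD4 libraries the lowest. The adjusted p was 1.1e-06 in siGATAD2A, 1.0e-05 in siCARM1 and 0.01 in siHDAC2, and the folds of 1.19, 1.17 and 1.09 were all under the minimum. Without siCARM1 replicate 2, DNMT1 was called higher in siCARM1, at 0.27. In siCHD4 the log2 fold change was -0.08 (95% interval from -0.15 to 0.00, adjusted p = 0.0799).

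UHRF1, which binds hemimethylated CpG and recruits DNMT1, was lower in siCHD4. It had 408 and 403 CPM in siCTL, 322 and 313 in siCHD4, 400 and 372 in siCARM1, 399 and 421 in siHDAC2, 400 and 401 in siGATAD2A, and 433 and 416 in siKDM1A. The 2 siCHD4 libraries were the lowest of the 12, with no overlap with any other group. The log2 fold change was -0.35 ± 0.0407 in siCHD4 (adjusted p = 5.5e-09) and between -0.07 and 0.07 in the other 4 knockdowns, with adjusted p-values from 0.158 to 0.787. Transcription of UHRF1 peaks around the entry to S phase, and the S phase genes of the Seurat package are given beside it. Without UHRF1, 16 of the 42 genes of that list were lower (25.1% of all tested genes), 3 higher (23.6%) and the rest not called in siCHD4, with a median of -0.18 against 0.00 over all genes. The ribonucleotide reductase subunit RRM2 stood at -0.79 and the helicase subunit MCM5 at -0.67. In siCARM1, 2 of the list were lower and 7 higher (median 0.03), in siHDAC2 0 and 3 (0.05), in siGATAD2A 2 and 4 (0.02), and in siKDM1A 4 and 1 (-0.03). RRM2 was also lower in siCARM1 (-0.26). MCM5 (-0.32) was also lower in siKDM1A, as was the cyclin gene CCNE2 (-0.45), which stood at -0.83 in siGATAD2A. CDC45, a replication initiation factor, was higher in siCARM1 (0.33), siHDAC2 (0.32) and siGATAD2A (0.44). The part of the cell cycle in the UHRF1 value was not tested.

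Of the 3 TET dioxygenases, TET1 and TET3 were called only higher and TET2 only lower. TET2 had 46.7 and 41.8 CPM in siCTL, 27.3 and 24.3 in siCHD4, 39.2 and 40.3 in siCARM1, 50 and 42.5 in siHDAC2, 42.8 and 42.9 in siGATAD2A, and 40.3 and 41.5 in siKDM1A. Only the siCHD4 libraries left the range of 39.2 to 50 CPM that held the other 10. The log2 fold change in siCHD4 was -0.78 ± 0.0787 (adjusted p = 3.7e-10), the largest of the 45 in size. It was -0.15 in siCARM1 (adjusted p = 0.0961) and between -0.11 and 0.06 in the other 3, with adjusted p-values from 0.244 to 0.653.

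TET1 carries a CXXC domain, a zinc finger that in many proteins binds unmethylated CpG. It had 72.3 and 69.0 CPM in siCTL, 92.2 and 94.1 in siCARM1, 93.4 and 88.4 in siCHD4, 89.7 and 81.3 in siHDAC2, 69.7 and 68.7 in siGATAD2A, and 71.4 and 79.6 in siKDM1A. The siCARM1, siCHD4 and siHDAC2 libraries all lay above both siCTL libraries, and those of siGATAD2A and siKDM1A overlapped them. TET1 was higher by a log2 fold change of 0.40 ± 0.0579 in siCARM1 (adjusted p = 1.1e-06), 0.36 ± 0.0581 in siCHD4 (2.1e-06) and 0.27 ± 0.0584 in siHDAC2 (4.6e-04). The siHDAC2 value, at a fold of 1.21, lost its call without siCTL replicate 2 (0.24) and without siHDAC2 replicate 1 (0.20). The values in siGATAD2A (-0.03, adjusted p = 0.711) and siKDM1A (0.10, 0.184) did not pass.

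TET3, which also has a CXXC domain, was highest after knockdown of GATAD2A. It had 95.2 and 97.5 CPM in siCTL, 118 and 115 in siCARM1, 124 and 120 in siCHD4, 106 and 105 in siHDAC2, 138 and 133 in siGATAD2A, and 96.1 and 96.6 in siKDM1A. All libraries but those of siKDM1A lay above siCTL. The log2 fold change was 0.49 ± 0.0467 in siGATAD2A (adjusted p = 1.9e-10), 0.34 ± 0.047 in siCHD4 (1.6e-07) and 0.27 ± 0.0471 in siCARM1 (1.8e-05). The last, a fold of 1.21, lost its call without siCTL replicate 1 (0.26) and without siCARM1 replicate 1 (0.25). In siHDAC2 the value of 0.13 passed the adjusted p (0.0287) and not the fold, and in siKDM1A the 95% interval ran from -0.10 to 0.10.

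**Figure D2:**
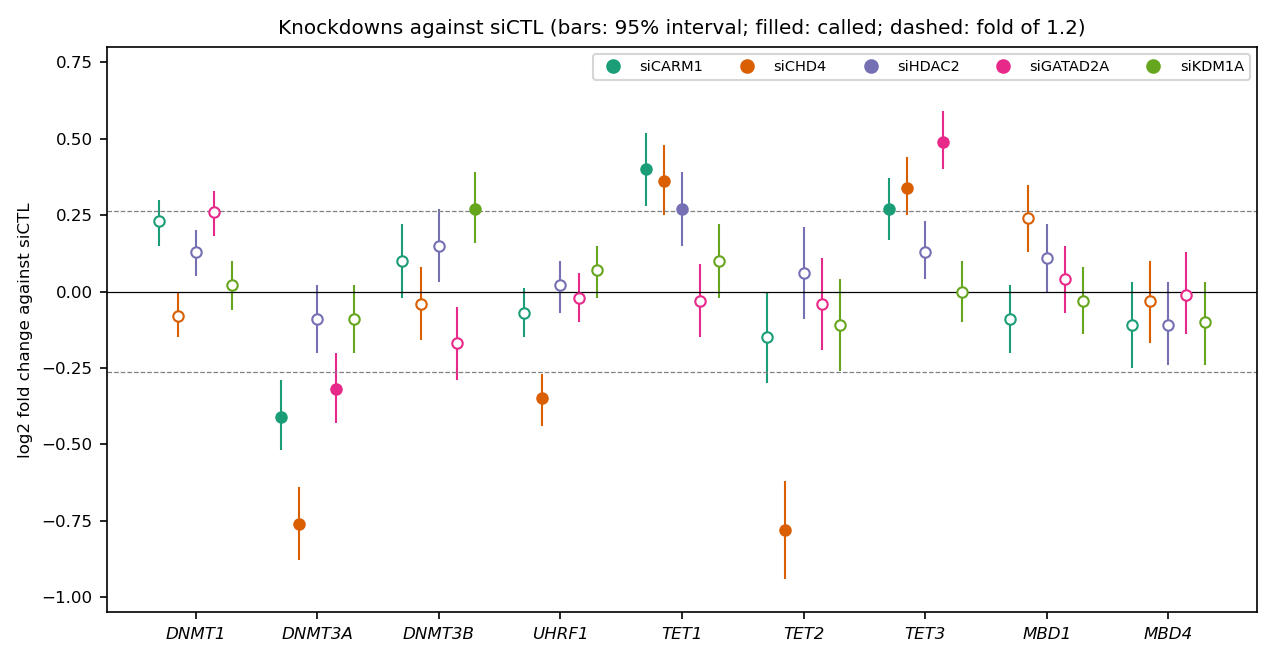
Log2 fold change of each gene against siCTL (y axis) in the 5 knockdowns (colours), with 95% intervals from the edgeR model as bars. Filled points were called, dashed lines mark a fold of 1.2, and the values of DNMT3A (-0.76) and TET2 (-0.78) in siCHD4 lie farthest from 0.

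The readers MBD1, which binds methylated CpG and represses transcription, and MBD4, a thymine DNA glycosylase that repairs mismatches from deaminated 5-methylcytosine, were called in no knockdown. MBD1 had 66 and 71.1 CPM in siCTL and 80.2 and 82.0 in siCHD4, with 63.9 to 74.9 in the other 4 knockdowns. The siCHD4 libraries were the highest of the 12, at a log2 fold change of 0.24 ± 0.0529 (adjusted p = 1.9e-04) and a fold of 1.18, which rose to 0.30 and was called without siCTL replicate 2. MBD4 had 37.1 and 39.3 CPM in siCTL and 34.4 to 38.7 in the knockdowns, and its 5 log2 fold changes lay between -0.11 and -0.01. The widest of their 95% intervals ran from -0.25 to 0.03, and the adjusted p-values from 0.192 to 0.93.

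Direct contrasts between knockdowns asked whether the members responded differently. They do not use the siCTL means, although the siCTL libraries enter the shared estimate of the spread. With 14.3% to 48.7% of all tested genes called in a contrast, 31 of 90 member values in the 10 contrasts were called. They were 7 of 9 members for siCHD4 against siKDM1A (47.7% of all tested genes), 5 for siCHD4 against siCARM1 (47.7%), 5 for siCHD4 against siGATAD2A (44.7%) and 3 for siCHD4 against siHDAC2 (48.7%). The other contrasts gave 3 for siCARM1 against siKDM1A (20.9%), 2 for siCARM1 against siGATAD2A (33.7%), 1 for siCARM1 against siHDAC2 (19.2%), 3 for siHDAC2 against siGATAD2A (29.4%), 2 for siGATAD2A against siKDM1A (32%) and 0 for siHDAC2 against siKDM1A (14.3%). DNMT3A and TET2 were lower in siCHD4 than in each of the other 4 knockdowns, DNMT3A by 0.36 (against siCARM1) to 0.67 and TET2 by 0.63 (against siCARM1) to 0.84 (against siHDAC2) on the log2 scale. UHRF1 was also lower in siCHD4 than in each of them, by 0.28 to 0.42. TET3 was higher in siGATAD2A than in siHDAC2 by 0.36 and than in siKDM1A by 0.49. It stood at -0.15 in siCHD4 against siGATAD2A (edgeR adjusted p = 0.00466) and at -0.22 in siCARM1 against siGATAD2A (1.2e-04). Both passed the adjusted p and were under the minimum fold, so neither was called. TET1 was higher in siCARM1 than in siGATAD2A by 0.43, and DNMT3B was higher in siKDM1A than in siGATAD2A by 0.45.

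Within the de novo pair, DNMT3B made up 67.5% ± 0.196 (SD, n = 2) of the summed FPKM in siCTL and 77.4% ± 0.218 in siCHD4. The share was 74.6% ± 1.44 in siCARM1, 72.7% ± 0.212 in siKDM1A, 71.1% ± 0.599 in siHDAC2 and 69.7% ± 0.409 in siGATAD2A. No knockdown library overlapped those of siCTL, which are the same 2 libraries in each comparison. The summed FPKM of both was 17.9 and 18.0 in siCTL, 14.7 and 15 in siCHD4 and 20.9 and 19.5 in siKDM1A. The sum was thus lowest in siCHD4, although the share of DNMT3B there was the highest. The shares and sums depend on the merged exon lengths, 13781 bases for DNMT3A and 6876 for DNMT3B. Without scaling to length, the 2 genes were near each other in siCTL, at mean CPM of 80.0 and 83.0. No test was run on shares or sums, which are given as descriptions.

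Among the TET genes, TET2 made up 15.4% ± 0.906 of the summed FPKM in siCTL and 7.64% ± 0.355 in siCHD4, with 11.4% to 14.1% in the other knockdowns. TET3 made up 42.6% ± 1.5 in siCTL and 51.7% ± 0.483 in siGATAD2A, where TET1 took 35.5% ± 0.254 in place of 42.0% ± 0.592. The summed FPKM was 17.8 and 17.3 in siCTL, 20.6 and 19.5 in siCHD4, 21.2 and 21.3 in siCARM1, 20.6 and 20.2 in siGATAD2A, 20.6 and 19.1 in siHDAC2, and 17.3 and 18.4 in siKDM1A. The sum of the 3 genes was above siCTL in both libraries of siCHD4, where TET2 itself was lower, and overlapped siCTL in siKDM1A. These shares and sums also depend on the merged exon lengths, 9612 bases for TET1, 16474 for TET2 and 12943 for TET3.

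**Figure D3:**
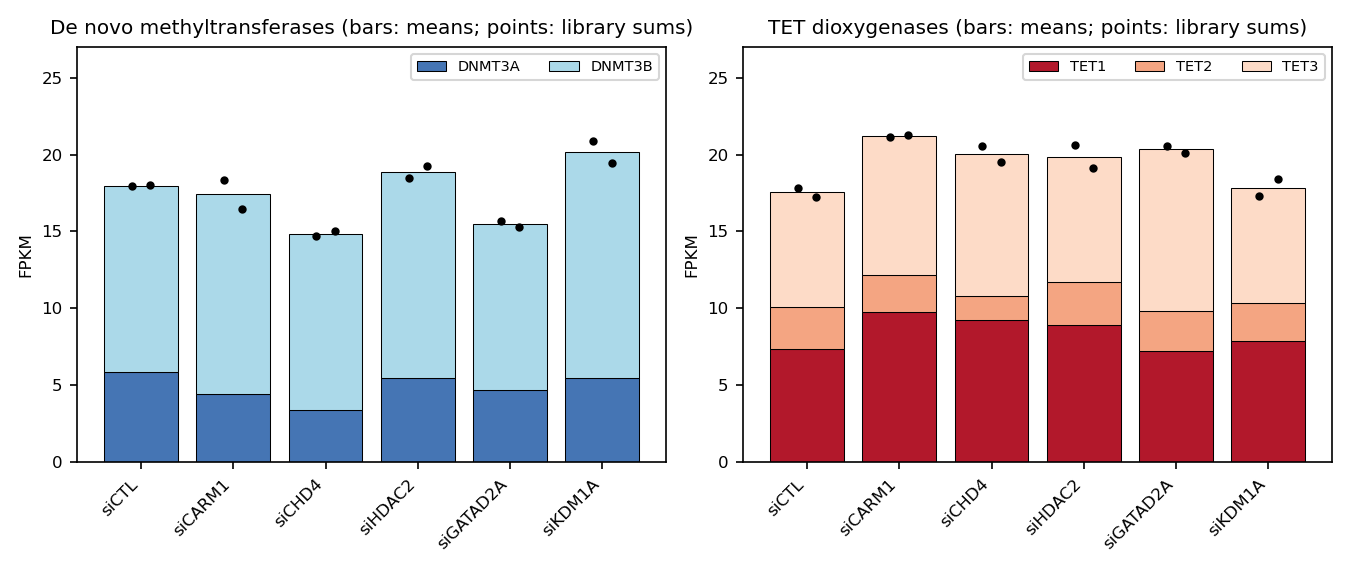
Mean FPKM of DNMT3A and DNMT3B (left) and of TET1, TET2 and TET3 (right), stacked, in the 6 groups, with the sum in each library as a point. In siCHD4 the de novo sum is lowest (14.7 and 15) and TET2 has its smallest share (7.64%). Heights within a bar depend on the merged exon lengths of the genes.

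Of 9 partners of maintenance methylation, all tested, 5 were called lower in siCHD4 (25.1% of all tested genes), 0 higher (23.6%) and the rest neither, with a median of -0.29. DNA ligase LIG1, which UHRF1 binds through a methylated lysine, stood at -1.0 ± 0.0472. The histone H3K9 methyltransferase SUV39H1 stood at -0.62, the replication clamp PCNA at -0.49, and the DNMT1-associated factor DMAP1 at -0.37. In siCARM1, 3 were lower and 1 higher (median -0.01), with SUV39H1 at -0.47, DMAP1 at -0.38 and LIG1 at -0.27. In siGATAD2A, 2 were lower and 0 higher (median -0.05), PCNA at -0.41 and LIG1 at -0.29. In siHDAC2 and siKDM1A, 0 were called (medians 0.01 and 0.00). These counts, and those of the lists that follow, are read against the shares of all tested genes lower and higher, 14.7% and 14.5% in siCARM1, 25.1% and 23.6% in siCHD4, 9.22% and 10.4% in siHDAC2, 18.4% and 15.4% in siGATAD2A, and 11.8% and 14% in siKDM1A. The median over all tested genes was 0.00 in every comparison except siHDAC2, where it was -0.01. PCNA, HELLS and CDCA7 are also on the S phase list.

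Cofactors and guides of de novo methylation were called in no knockdown. Of 9 listed genes, 6 were tested (NSD1, NSD2, SETD2, QSER1, TRIM28 and SETDB1), with medians between -0.10 in siCHD4 and 0.04 in siHDAC2. DNMT3L, the catalytically inactive partner of DNMT3A and DNMT3B, had 0 to 7 counts per library, ZFP57 1 to 6 and DPPA3 0, and these were not tested.

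The next list holds the rest of the MBD family and other proteins known as methyl-CpG readers, although MBD3, MBD5 and MBD6 are not known to bind methylated CpG as MBD2 does. Of these 9 genes, all tested, 2 were lower and 2 higher in siCHD4 (median -0.03), 0 and 2 in siCARM1 (0.02), 1 and 1 in siHDAC2 (0.01), 1 and 2 in siGATAD2A (0.12), and 1 and 0 in siKDM1A (0.04). MBD3 was the gene called lower in siHDAC2 (-0.28) and in siKDM1A (-0.31), and was named after its values were seen. In siCARM1 MBD3 stood at -0.25 (adjusted p = 7.1e-05) and in siCHD4 at -0.11 (0.0428), both under the minimum fold. In siGATAD2A its value was -0.08 (0.183). The zinc finger reader ZBTB4 was higher in siCHD4 by 0.75 ± 0.0581. MBD6 fell in siCHD4 (-0.74) and rose in siGATAD2A (0.31), UHRF2, the paralogue of UHRF1, was higher in siCHD4 (0.35) and siCARM1 (0.33), and MBD5 was higher in siHDAC2 (0.43) and siCARM1 (0.27). UHRF2 and UHRF1 thus had opposite signs in siCHD4.

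Readers of unmethylated CpG that carry a CXXC domain are the next list. Of 6 tested, 0 were lower and 4 higher in siCHD4 (median 0.41, against 23.6% of all tested genes higher), 1 and 3 in siCARM1 (0.20), 0 and 2 in siGATAD2A (0.23), 0 and 2 in siHDAC2 (0.11), and 0 and 2 in siKDM1A (0.04). The histone demethylase gene KDM2A was called higher in all 5 knockdowns, by 0.91 ± 0.0391 in siCHD4, 0.65 in siGATAD2A, 0.44 in siHDAC2, 0.41 in siKDM1A and 0.40 in siCARM1, and KDM2B in all 5 by 0.31 to 0.42. These comparisons share their siCTL libraries and are not 5 independent results. KMT2A was higher in siCHD4 (0.49) and siCARM1 (0.28), and FBXL19 in siCHD4 (0.50).

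Genes of active demethylation and base excision repair form a list of 18, all tested. In siCHD4, 8 were lower (25.1% of all tested genes) and 4 higher (23.6%), with a median of -0.14. The counts lower and higher were 1 and 2 in siCARM1 (-0.01), 0 and 1 in siHDAC2 (-0.04), 4 and 4 in siGATAD2A (-0.03), and 3 and 3 in siKDM1A (-0.07). IDH2, the mitochondrial isocitrate dehydrogenase that makes the TET cosubstrate 2-oxoglutarate, was lower in siCHD4 (-1.20 ± 0.065), siGATAD2A (-0.95) and siKDM1A (-0.39). The stress gene GADD45B was higher in siCHD4 (1.11 ± 0.0657), siGATAD2A (0.96), siKDM1A (0.83) and siCARM1 (0.36), and its relative GADD45G was lower in siKDM1A (-0.88) and siCHD4 (-0.70). CXXC4, the neighbour of TET2 on chromosome 4 and a TET2-binding protein, was lower in siCHD4 (-0.44 ± 0.109), as TET2 was, and higher in siKDM1A (0.60), siHDAC2 (0.33) and siGATAD2A (0.31), where TET2 was not called.

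The enzymes that supply S-adenosylmethionine, the methyl donor, gave 3 lower and 1 higher of 9 in siCHD4 (median -0.04), 3 and 0 in siCARM1 (-0.06), 0 and 0 in siHDAC2 (0.00), 3 and 0 in siGATAD2A (0.01), and 1 and 1 in siKDM1A (-0.12). Methionine synthase MTR was lower in siGATAD2A (-0.63), SHMT1 in siCHD4 (-0.63) and siGATAD2A (-0.51), and the synthetase gene MAT2A was higher in siCHD4 (0.44).

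Germline genes that promoter methylation is known to silence in somatic cells had low counts in every group, apart from CTCFL, a germline paralogue of CTCF. The other 15 of 16 had 0 to 23 counts in every library and were not tested. CTCFL had a mean of 10 counts in siCTL, 693 in siCHD4, 143.5 in siGATAD2A, 59 in siHDAC2, 47 in siKDM1A and 30 in siCARM1. The order of the groups was thus led by siCHD4 and siGATAD2A. The log2 fold change was 5.89 ± 0.247 in siCHD4, 3.59 ± 0.318 in siGATAD2A, 2.35 ± 0.38 in siHDAC2, 2.03 ± 0.399 in siKDM1A and 1.34 ± 0.441 in siCARM1. CTCFL was below the FPKM minimum in siCTL (0.0523) and entered the test only through knockdown groups, so its calls are no support for a change in the list.

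The genes most alike to each member, by Pearson's r of log2 CPM over the 12 libraries, are given as a description, since the libraries of a group share their siRNA. They were SIRT2 (0.99) and SEMA4B (0.984) for DNMT3A, MVB12A (0.983) and EIF3K (0.982) for UHRF1, and SYNRG (0.975) for TET2. For TET3 they were AKAP13 and ATG2B (both 0.968), for DNMT1 CLASP1 (0.963) and ARID5B (0.957), for DNMT3B MARCHF2 (0.96) and HIP1 (0.95), for TET1 PRR14L (0.959) and FBLN7 (0.958), and for MBD1 EEF1D (0.955) and KCNS3 (0.946). Among the members, r was 0.912 for DNMT3A with UHRF1, 0.88 for UHRF1 with TET2 and 0.838 for DNMT3A with TET2, and the 2 siCHD4 libraries are the lowest for all 3 genes. DNMT3B and TET3 had r = -0.699, and DNMT1 and UHRF1, which act together, 0.443.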

How the data were processed

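For each of 12 libraries the authors deposited unnormalised counts of pairs on Ensembl genes, in 3 columns (unstranded and each strand). The submitters' processing notes name CASAVA 1.4, STAR 2.7.10 and hg19, whereas the methods name TopHat and HOMER. The annotation behind the counts is not given in the sources used here. Some identifiers are not held by native hg19 annotations, so the build behind the counts is not settled. The exon lengths and overlap shares used here may differ from those behind the counts. STAR counts only uniquely mapped pairs. The reverse-strand column was taken because of the directional kit, and the forward column held 7.93% to 8.40% as many. Identifiers were matched to GENCODE on GRCh37 (58662 of 60660). Coding genes with FPKM above 0.5 in a group mean (12830) were tested with edgeR 4.0.16 (TMM, quasi-likelihood) in R 4.3.3, in 1 model of 6 group means, with Benjamini-Hochberg adjustment within each comparison. The thresholds for a call are those of the study (adjusted p 0.05 in its methods, fold 1.2 in its results). The 9 genes and the lists were chosen with earlier results of these data known. Named are the members, the targets, up to 4 genes of each list with the largest mean change among those called and, for each member past the test over all groups, its 2 most alike genes, except that results for some of these genes are not reported here. The steps were tested on simulated data. DESeq2 1.42.0 was an alternative. Sequencing took place at 1 of 2 companies, which the labels do not assign to libraries.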

Additional observations from a re-analysis of the deposited data

How the results depend on the processing

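The 12 called member values were recomputed with RLE size factors, with DESeq2, with a replicate block and from the compared groups alone. They were also recomputed from unstranded counts, under 2 other filters on low genes, and with each library of the compared groups left out. A further setting only dropped the fold minimum from the same fit, where a called value cannot lose its call or change sign. Its 12 values are counted here as kept. Of 144 such values 137 kept their call, 7 lost it and 0 changed sign, and the losses were TET3 in siCARM1, TET1 in siHDAC2 and DNMT3B in siKDM1A, all at folds next to 1.2. With filterByExpr on all biotypes, TET1 in siHDAC2 and DNMT3B in siKDM1A both stood at 0.25, so 0 members were called in siHDAC2 and 0 in siKDM1A. With the adjusted p alone, 4 members were called in siHDAC2 and 4 in siGATAD2A, and 57 member values between knockdowns. Of the 12830 tested genes, those called then numbered 8412 (siCHD4), 6592 (siGATAD2A), 5984 (siCARM1), 5431 (siKDM1A) and 4540 (siHDAC2). With the fold minimum they numbered 6250, 4337, 3757, 3299 and 2516. Nothing particular to the members is read from their counts at this setting.

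Leaving out 1 library gave 2 to 4 called members in siCARM1, 5 to 6 in siCHD4, 0 to 1 in siHDAC2, 2 in siGATAD2A, 0 to 1 in siKDM1A and 27 to 32 between knockdowns. A group left with 1 library is assumed to vary like the others. Some of the uncalled values changed sign, from values of up to 0.10 in size. With a library left out, TET3 in siKDM1A ran from -0.01 to 0.02, UHRF1 in siHDAC2 from -0.02 to 0.05, TET1 in siGATAD2A from -0.06 to 0.00, TET2 from -0.12 to 0.03 in siGATAD2A and -0.06 to 0.18 in siHDAC2, MBD1 from -0.02 to 0.09 in siGATAD2A and -0.08 to 0.03 in siKDM1A, MBD4 from -0.07 to 0.01 in siCHD4 and -0.05 to 0.03 in siGATAD2A, and DNMT3B in siCARM1 from -0.01 to 0.20. TET3 in siKDM1A was also 0.00 with RLE and DESeq2, UHRF1 in siHDAC2 0.00 unstranded and -0.01 with filterByExpr, and DNMT1 in siKDM1A 0.00 with filterByExpr. The cause of these shifts was not tested.

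Replicate numbers did not pair the libraries, with correlations of same-numbered deviations between -0.142 and 0.135. With the replicate block, 3 members were called in siCARM1, 5 in siCHD4, 2 in siGATAD2A and 1 each in siHDAC2 and siKDM1A, and 31 values between knockdowns, the same counts as without it. With 2 libraries a group, small differences may be missed.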
